A study of Mus musculus with 6 samples.

Results

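The endothelial genes Pecam1, Cdh5, Cldn5, Emcn, Kdr, Flt1, Eng, Tek, Tie1 and Vwf were followed in mammary glands that had been reconstituted with wild-type or Adamts18-mutant epithelium. They are 10 of the 34590 gene symbols in the count table and were selected by symbol, as genes that mark vascular endothelium or encode its receptors. All 10 passed the filter on low counts, together with 17345 genes in all. The study's text describes RNA-seq of contralateral glands, and the 6 libraries came from 3 mice. In each mouse the left inguinal gland (gland number 4) carried WT.EGFP+ epithelium and the right one Adamts18-/-.EGFP+ epithelium, giving 3 libraries per group. The hosts were wild-type females whose fat pads had been cleared of their own epithelium at 3 weeks of age, and the donors of both genotypes carried an EGFP transgene driven by the chicken β-actin promoter. The host fat pads, with their own vessels and fat, were therefore WT in both groups. Adamts18, which encodes a secreted protease, was deleted only in the grafted tissue. Whether the grafts carried donor vessels or stroma was not tested, so endothelial RNA of host and donor cannot be told apart. As each Adamts18-/- graft was placed on the right, genotype and body side cannot be told apart. The time from grafting to harvest of these libraries was not given in the sources used here.

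Endothelial cells line blood and lymphatic vessels and are held together by VE-cadherin (Cdh5), claudin-5 (Cldn5) and PECAM-1 (Pecam1). They respond to vascular endothelial growth factor (VEGF) through the receptor tyrosine kinases encoded by Kdr and Flt1, and to angiopoietins through the receptor encoded by Tek, with which the product of Tie1 associates. In the mammary gland the capillaries run through the fat pad and around the ducts, and they expand when the epithelium grows.

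The 6 libraries held between 53875123 and 71595924 reads counted on genes, and the 10 endothelial genes took between 50510 and 90781 of them, or 0.0860% to 0.141%. The labels name the material as mammary epithelial cells sorted for GFP by flow cytometry, while the study's text speaks of profiled glands. The data held markers of several other cell types. The summed level of 25 epithelial genes was 1498 to 2752 counts per 1000000 reads (CPM), against 822 to 1416 CPM for the 10 endothelial genes, 9129 to 12612 CPM for 10 fibroblast genes and 10010 to 23085 CPM for 10 adipocyte genes. The targeted gene, Adamts18, had 252, 608 and 383 reads on the WT side and 144, 295 and 202 reads on the Adamts18-/- side of mice 1, 2 and 3. It was lower in each Adamts18-/- gland than in the contralateral WT gland, with a log2 fold change of -0.83 ± 0.19 (SE). Adamts18 did not pass the thresholds without the block for the mouse (p of 0.0767), without mouse 2 (log2 fold change -0.72, p of 0.0582) or when scaled to the epithelial genes (-0.37, p of 0.272). The mutant allele lacks the exons for the catalytic site of the protease, and counts per gene do not show whether reads fell in them.

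Promoters of 4 receptor genes are printed, as they encode the growth factor receptors of the family. The sequences are those of RefSeq on GRCm38.p6, from 250 bases before to 50 bases after the transcription start, and 7 of the 10 genes were found in that table. Capitals mark the core GGAA bound by ETS transcription factors, a family that acts in endothelium, or its reverse complement TTCC; neither motif overlaps the other.
Kdr, chr5:75978406-75978705, minus strand: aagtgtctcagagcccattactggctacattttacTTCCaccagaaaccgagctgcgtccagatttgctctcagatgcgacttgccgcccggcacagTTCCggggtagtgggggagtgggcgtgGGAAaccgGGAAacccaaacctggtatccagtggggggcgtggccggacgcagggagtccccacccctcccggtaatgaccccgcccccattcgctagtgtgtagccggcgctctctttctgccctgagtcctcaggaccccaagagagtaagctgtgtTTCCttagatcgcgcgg
Flt1, chr5:147725962-147726261, minus strand: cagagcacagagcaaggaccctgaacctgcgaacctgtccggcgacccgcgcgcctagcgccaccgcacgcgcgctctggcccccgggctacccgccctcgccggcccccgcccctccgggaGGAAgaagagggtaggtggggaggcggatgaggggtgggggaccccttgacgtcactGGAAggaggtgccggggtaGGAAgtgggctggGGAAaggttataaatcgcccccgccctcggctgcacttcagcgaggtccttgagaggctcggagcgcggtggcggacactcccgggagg
Tek, chr4:94739039-94739338, plus strand: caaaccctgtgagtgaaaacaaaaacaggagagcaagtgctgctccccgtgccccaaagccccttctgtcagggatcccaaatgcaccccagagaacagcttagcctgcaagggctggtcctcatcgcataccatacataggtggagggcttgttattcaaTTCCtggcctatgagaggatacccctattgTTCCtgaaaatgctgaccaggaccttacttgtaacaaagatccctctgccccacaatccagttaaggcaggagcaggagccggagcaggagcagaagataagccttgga
Tie1, chr4:118489800-118490099, minus strand: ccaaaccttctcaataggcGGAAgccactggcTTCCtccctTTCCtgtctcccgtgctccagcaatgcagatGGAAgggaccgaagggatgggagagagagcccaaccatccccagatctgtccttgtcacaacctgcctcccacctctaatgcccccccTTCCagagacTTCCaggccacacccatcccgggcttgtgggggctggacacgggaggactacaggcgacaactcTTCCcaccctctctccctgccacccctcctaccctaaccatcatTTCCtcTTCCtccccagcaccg
The motif was counted on both strands 5 times for Kdr, 4 times for Flt1, 2 times for Tek and 9 times for Tie1. The promoters of Emcn, Eng and Cldn5 held 6, 4 and 0 copies. Of all 32817 promoters of 300 bases, 96.0% held at least 1 copy, the median was 3 and 28.6% held at least 5, so the presence of the motif does not set these genes apart.

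All 10 endothelial genes had a fitted level in the Adamts18-/- glands below that in the WT glands, but none of them passed the thresholds used by the study, a fold change below 0.8 or above the inverse of 0.8 with an unadjusted p below 0.05. Their median log2 fold change was -0.16, against 0.00065 over all 17345 genes tested, of which 49.8% were fitted lower. These directions hold for the TMM scaling used here; when the libraries were scaled to the epithelial genes, the median of all genes shifted to 0.45 and all 10 genes were fitted higher, with a median of 0.29, which was -0.16 relative to all genes. With the same thresholds 1.84% of all genes were lower and 1.17% were higher in the Adamts18-/- glands. In the edgeR quasi-likelihood fit, which took the mouse as a block, each of the 10 genes had an adjusted p of 0.987. No gene of the whole table reached an adjusted p below 0.05, where the smallest was 0.771, although 670 genes had an unadjusted p below 0.05 and DESeq2 called 71 genes by adjusted p, none of them one of the 10. Fewer endothelial cells and less RNA of these genes per cell cannot be told apart in such libraries. In the Adamts18-/- glands the summed level of the epithelial genes was also lower, at 0.970, 0.592 and 0.687 of the WT gland in mice 1, 2 and 3, and its part in the result was not tested. Lower fitted values under TMM scaling were not particular to the endothelial genes. All 10 adipocyte, 6 Schwann cell and 25 epithelial genes were also fitted lower, with medians of -0.13, -0.17 and -0.39. Among fibroblast, leukocyte and skeletal muscle genes, 4, 1 and 0 of 10 were fitted lower. For erythroid and platelet genes it was 1 of 6 and 3 of 7.

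**Figure D1:**
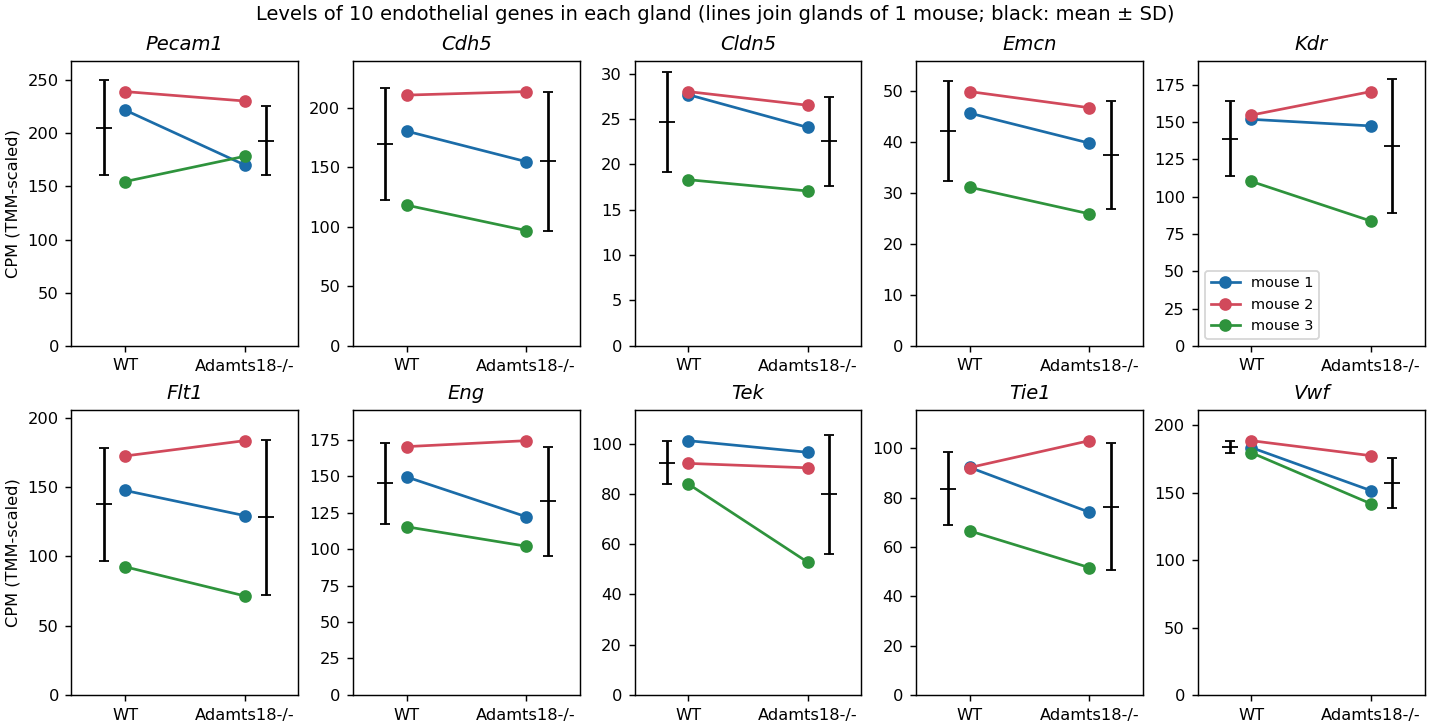
Level of each of the 10 endothelial genes (y axis, CPM scaled by the TMM method, starting at 0) in WT and Adamts18-/- glands. Colored lines join the contralateral glands of 1 mouse, and black bars give the mean ± SD of 3 glands. Vwf is the gene whose groups do not overlap, and mouse 3 gave the lowest WT value for all 10 genes.

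Among the genes of the endothelial surface and its junctions, Pecam1, which encodes an adhesion molecule of endothelial cells, platelets and leukocytes, had 222, 239 and 155 CPM on the WT side of mice 1, 2 and 3 and 170, 230 and 178 CPM on the Adamts18-/- side. The groups overlapped, and the difference had opposite signs in mice 1 and 3. The fitted log2 fold change was -0.08 ± 0.13 (SE, n = 3 mice) with a 95% interval of -0.43 to 0.27 and an unadjusted p of 0.592. In mouse 3, where Pecam1 was higher in the Adamts18-/- gland by 0.21 on the log2 scale, the pan-leukocyte gene Ptprc was at 549 CPM in that gland against 203 CPM in the WT gland. The 10 leukocyte genes together ran from 1117 to 1962 CPM in the WT glands and from 1234 to 2791 CPM in the Adamts18-/- glands, none was at 0, 3 of the 10 were lower in mouse 3, and their part in the Pecam1 values was not tested.

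Cdh5, the cadherin of endothelial adherens junctions, was measured at 180, 211 and 118 CPM in the WT glands and at 155, 214 and 96.9 CPM in the Adamts18-/- glands. The ranges overlapped almost fully, as the mice differed more from each other than the contralateral glands did. The log2 fold change of Cdh5 was -0.16 ± 0.092 (SE), with a 95% interval of -0.40 to 0.08. Cldn5, a tight junction protein of endothelium, was at 27.7, 28.0 and 18.3 CPM in the WT glands and 24.1, 26.5 and 17.1 CPM in the Adamts18-/- glands. Each Adamts18-/- gland lay below its WT counterpart, and the groups overlapped. For Cldn5 the log2 fold change was -0.13 ± 0.078 (SE), with a 95% interval of -0.33 to 0.08. Emcn encodes endomucin, a sialoglycoprotein of capillaries and veins. Its levels were 45.6, 49.9 and 31.1 CPM in the WT glands and 39.8, 46.7 and 25.9 CPM in the Adamts18-/- glands, again lower within each mouse while the groups overlapped. The fitted log2 fold change of Emcn was -0.19 ± 0.075 (SE), with a 95% interval of -0.38 to 0.01 and an unadjusted p of 0.0585.

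The differences of the VEGF receptor genes had unlike signs among the mice. Kdr, which encodes the main signaling receptor for VEGF-A, was at 152, 155 and 110 CPM in the WT glands and at 147, 170 and 83.7 CPM in the Adamts18-/- glands. The difference was near 0 in mouse 1, upward in mouse 2 and downward in mouse 3, with a fitted log2 fold change of -0.10 ± 0.12 (SE) and a 95% interval of -0.42 to 0.22. Flt1, whose product binds VEGF-A and placental growth factor and limits the VEGF-A that reaches the other receptor, was at 147, 172 and 92.4 CPM in the WT glands and at 129, 183 and 71.4 CPM in the Adamts18-/- glands. The groups overlapped, and mouse 2 again went upward. For Flt1 the log2 fold change was -0.16 ± 0.11 (SE), with a 95% interval of -0.44 to 0.13. Eng encodes endoglin, a co-receptor for TGF-beta and BMP ligands, and was at 149, 170 and 115 CPM in the WT glands and at 122, 174 and 102 CPM in the Adamts18-/- glands. Eng had the pattern of Flt1 over the mice, with a log2 fold change of -0.14 ± 0.091 (SE) and a 95% interval of -0.38 to 0.09. In the GENCODE M21 annotation, 61 bases (1.51%) of its exons overlap those of Fpgs on the opposite strand, and without knowledge of the strand setting, reads there cannot be assigned to either gene.

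The angiopoietin receptor Tek was at 101, 92.2 and 84.0 CPM in the WT glands and at 96.6, 90.4 and 52.8 CPM in the Adamts18-/- glands. It was lower in each Adamts18-/- gland, by 0.07 and 0.03 on the log2 scale in mice 1 and 2 and by 0.67 in mouse 3, so that 1 mouse made most of the fitted log2 fold change of -0.25 ± 0.15 (SE). The 95% interval of Tek was -0.64 to 0.14, and without mouse 3 the log2 fold change was -0.040. Its partner Tie1 was at 92.2, 92.2 and 66.5 CPM in the WT glands and at 74.1, 103 and 51.6 CPM in the Adamts18-/- glands. The groups overlapped, and the difference was downward in mice 1 and 3 and upward in mouse 2. The log2 fold change of Tie1 was -0.17 ± 0.13 (SE), with a 95% interval of -0.50 to 0.16. Without mouse 2, in which Tie1 went upward, Tie1 was the 1 gene of the 10 that passed the thresholds. Its log2 fold change was then -0.34, where edgeR gave an unadjusted p of 0.0204. In that fit 214 of 17507 genes passed downward, and the smallest edgeR adjusted p of the 10 genes was 0.895.

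Vwf encodes von Willebrand factor, the clotting glycoprotein that endothelial cells and megakaryocytes store and secrete. It was measured at 184, 189 and 180 CPM in the WT glands and at 152, 178 and 142 CPM in the Adamts18-/- glands. Vwf was the 1 gene of the 10 whose groups did not overlap, a pattern that 2.63% of all genes showed in this direction. The log2 fold change was -0.23 ± 0.086 (SE), or a fold change of 0.850, with a 95% interval of -0.46 to -0.0096. It was also the 1 gene of the 10 with an unadjusted p below 0.05 (0.0439), while 2.47% of all genes had such a p and were fitted lower. The p of Vwf was 0.0740 without the block for the mouse, and 0.239 and 0.125 without mouse 1 and mouse 3. The 10 platelet and megakaryocyte genes summed to 38.1 to 53.3 CPM in the WT glands and 27.7 to 55.0 CPM in the Adamts18-/- glands, mostly from Pf4. The receptor subunit genes Gp9 and Gp6 did not exceed 0.196 CPM in any gland, and Gp6 was at 0 reads in the Adamts18-/- glands of mice 1 and 3. The part of these cells in the Vwf result was not tested.

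**Figure D2:**
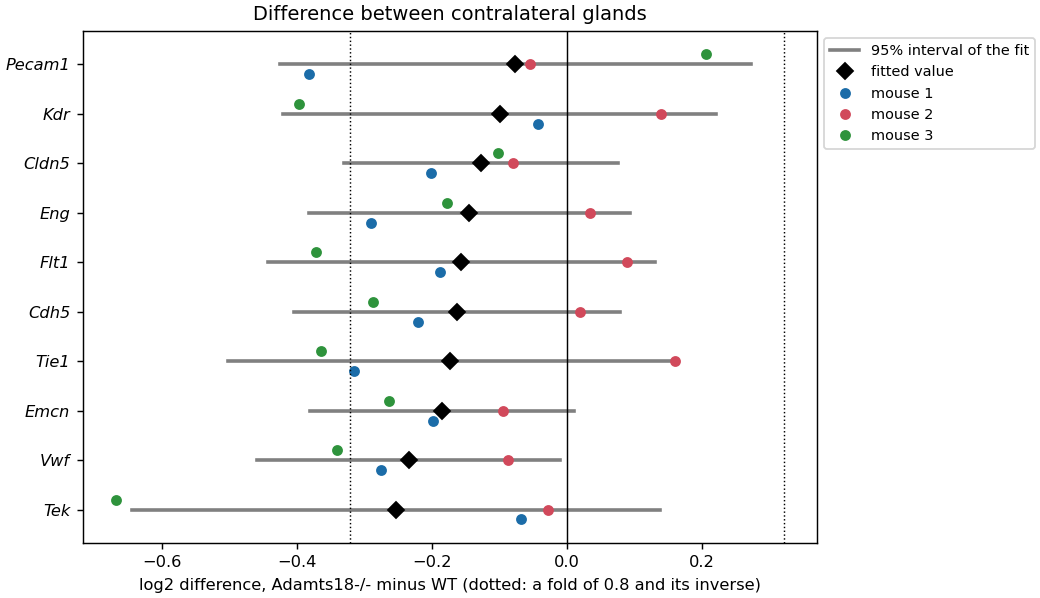
Difference in log2 level between the Adamts18-/- and the WT gland (x axis) for the 10 genes (y axis, ordered by the fitted value). Circles give the 3 mice, diamonds the edgeR value and gray bars its 95% interval, and dotted lines mark the fold change of 0.8 and its inverse. The interval of Vwf lies below 0 and those of the other 9 genes include 0, and the circles of mouse 2 lie nearest to 0 or above it for most genes.

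Taken by mouse, 10 of the 10 genes were lower in the Adamts18-/- gland of mouse 1, 5 in that of mouse 2 and 9 in that of mouse 3. Over all genes the shares lower were 52.5%, 50.8% and 50.8%. The 10 genes are not independent observations, as 20 of their 45 pairs had a Pearson r over 0.9 over the 6 glands. The median log2 difference of the 10 genes was -0.21 in mouse 1, -0.0039 in mouse 2 and -0.31 in mouse 3. Hence mice 1 and 3 differed in one direction and mouse 2 did not, and the fitted median was -0.24 without mouse 2 and -0.11 without mouse 3. Tek, Vwf, Emcn and Cldn5, 4 of the 10, were lower in each of the 3 mice, as were 12.7% of all genes. The summed level of the 10 genes was 1301, 1398 and 970 CPM in the WT glands and 1110, 1416 and 822 CPM in the Adamts18-/- glands, which gives ratios of 0.853, 1.01 and 0.847. Under the TMM scaling, the 95% intervals of the 10 genes allowed fold changes between 0.640 and 1.21. Each of these 10 intervals reached below a fold change of 0.8, the study's threshold for a decrease, and none of them reached its threshold for an increase. Counting error was small beside this, as the lowest count of any of the genes, 1031 reads for Cldn5, carries a counting SD of 3.11%.

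The mouse accounted for more of the variation of these genes than the genotype of the graft. The median share of the variance of log2 CPM taken by the mouse was 88.3% for the 10 genes and 67.3% over all genes, and that taken by the genotype was 5.59% and 5.98%. The shares are not on equal terms, as 3 mice take more than 2 groups even without an effect of either. The study's text speaks of separate experiments and donors, which cannot be told apart from the mouse here. In the WT glands mouse 3 had the lowest level of all 10 genes, and among the Adamts18-/- glands it had the lowest level of 9, with Pecam1 as the exception. Mouse 2 had the highest level of 8 genes in the WT glands and of 9 in the Adamts18-/- glands. Vwf stood out from this pattern, as the mouse took 28.8% and the genotype 58.9% of its variance, and its 3 WT glands lay within 180 to 189 CPM.

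The genes were also compared per length, since longer transcripts collect more reads. Levels were divided by the length of the principal transcript in GENCODE M21 (GRCm38), a build other than the mm9 named in the submitters' processing notes. On this scale the mean WT level of Pecam1 was 62.5 ± 13.6 CPM per kilobase (SD, n = 3), the first of the 10, followed by Cdh5 at 42.5 ± 11.8 and Eng at 42.4 ± 8.11 CPM per kilobase. Pecam1 exceeded Cdh5 in all 6 glands, and Cdh5 exceeded Eng in 4 of 6. Emcn came next at 31.1 ± 7.25 CPM per kilobase, below Eng and above Kdr, at 23.4 ± 4.20 CPM per kilobase, in all 6 glands. Kdr exceeded Vwf in 4 of 6. The levels of Vwf (20.8 ± 0.508 CPM per kilobase), Tie1 (20.4 ± 3.63), Flt1 (19.9 ± 5.93) and Tek (19.9 ± 1.85) lay within their spread, as each exceeded the next in 2 or 3 of the 6 glands. Cldn5 was the lowest of the 10 at 17.4 ± 3.89 CPM per kilobase, under Tek in 5 of 6 glands. The order depended on the length used. Per length of all annotated exons, Cdh5 ranked 1, Eng 2 and Pecam1 3, Emcn moved from rank 4 to 10, and Tek and Cldn5 moved to ranks 4 and 5.

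**Figure D3:**
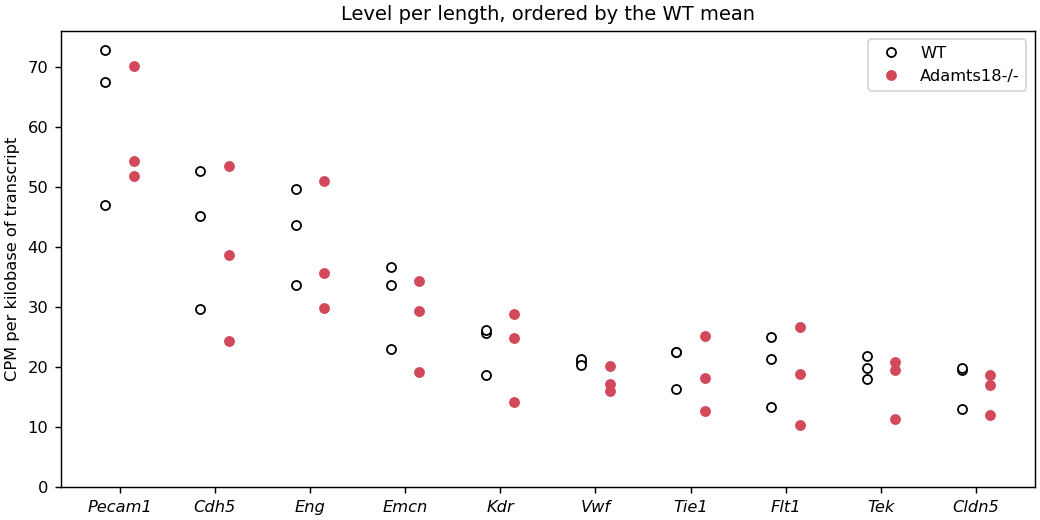
Level per kilobase of the principal transcript (y axis, CPM per kilobase, starting at 0) for the 10 genes in order of their WT mean (x axis). Open circles are WT glands and filled circles Adamts18-/- glands. Pecam1 lies above Cdh5 in all 6 glands, whereas Vwf, Tie1, Flt1 and Tek share one range.

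Over the 6 glands the levels of most of the genes moved together. Of the 45 pairs, 20 had a Pearson r over 0.9, from 0.998 for Cdh5 with Flt1 down to 0.357 for Pecam1 with Tek. Among the 7 genes other than Pecam1, Tek and Vwf, the 21 pairs had r of 0.882 or more. These correlations rest on 6 points that share mice and total reads, and mouse 3 set much of the range, so they describe the libraries only. The genes outside the endothelial lists whose profiles were most like the mean profile of the 10 genes were Rasal2 (r = 0.9998), Rapgef3 (0.9995), Slc9a3r2 (0.998), Stac (0.998), She (0.997), Rsu1 (0.997), Ppapdc2 (0.997), Caskin2 (0.997), Daam2 (0.997) and Syde1 (0.996), out of 14710 genes with a mean level of at least 1 CPM. None of them passed the thresholds, with log2 fold changes from -0.28 for Stac to -0.09 for Ppapdc2. An r over 0.9 with the mean profile was found for 7 of the 10 genes, which themselves form that profile, for 9 of the 10 adipocyte genes and for 12.0% of all 14710 genes. It was also found for 8 of 10 genes of Notch, ephrin and connexin signaling in vessels and for 7 of 12 pericyte genes. Of 10 fibroblast genes 1 had such an r, and of 25 epithelial and 10 leukocyte genes 0. For the adipocyte genes Cfd and Fabp4, r was 0.984 and 0.981.

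The adipocyte genes went downward in mice 1 and 3, as most endothelial genes did. In mouse 2 the endothelial genes had no common direction, with 5 of the 10 lower, while most adipocyte genes were higher. The summed level of the adipocyte genes was 22715, 21971 and 12875 CPM in the WT glands and 20148, 23085 and 10010 CPM in the Adamts18-/- glands, with ratios of 0.887, 1.05 and 0.777. All 10 adipocyte genes were lower in the Adamts18-/- glands of mice 1 and 3, 1 of 10 was lower in mouse 2, none was at 0, and none of them passed the thresholds. Skeletal muscle genes differed in another way, with ratios of 37.5, 13.0 and 0.679 for a sum of 10 genes that ran from 349 to 3333 CPM in the WT glands and from 2263 to 13178 CPM in the Adamts18-/- glands. None of the 10 muscle genes passed the thresholds, and mouse 3 differed in the other direction. The part of fat and muscle content in the endothelial values was not tested.

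**Figure D4:**
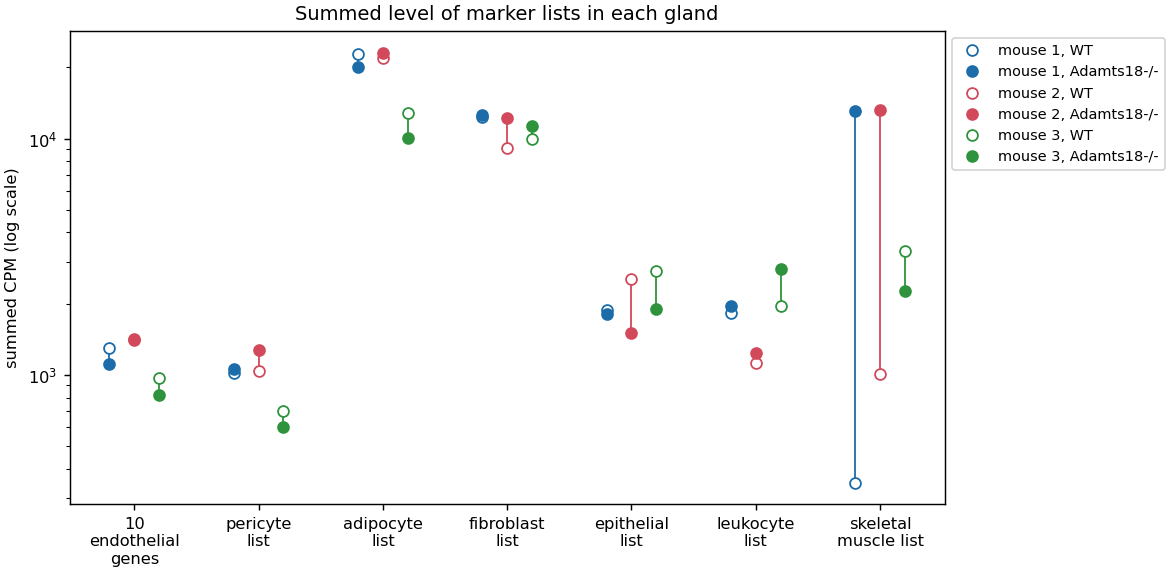
Summed level of the 10 endothelial genes and of 6 marker lists (x axis) in each gland (y axis, TMM-scaled CPM, log scale). Open circles are WT glands and filled circles Adamts18-/- glands, joined within each mouse. The endothelial and adipocyte sums were lower in the Adamts18-/- glands of mice 1 and 3 and slightly higher in that of mouse 2, while the muscle sum was 37.5 and 13.0 times as high in mice 1 and 2.

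The other genes of vessels were read from 6 lists, which hold 83 genes together, of which 81 were tested. Of these, 66 (81.5%) were fitted lower in the Adamts18-/- glands, with a median log2 fold change of -0.14, and 2 passed the thresholds downward and 2 upward. Over all genes tested, 49.8% were fitted lower, 1.84% passed downward and 1.17% passed upward. By mouse, 66, 29 and 65 of the 81 were lower in mice 1, 2 and 3, so the sequence of the 10 endothelial genes over the mice was found here too. Genes read from the same glands are not independent observations. All 11 genes for VEGF and angiopoietin ligands and their further receptors were fitted lower and none of them passed, with a median of -0.16. Vegfa, the main VEGF ligand, was at 294, 259 and 189 CPM in the WT glands and at 278, 267 and 149 CPM in the Adamts18-/- glands, with a log2 fold change of -0.13 ± 0.11 (SE). Ptprb, the phosphatase that opposes signaling by the angiopoietin receptor, had a log2 fold change of -0.20 ± 0.11 (SE). Nrp1, which encodes the VEGF co-receptor neuropilin-1, had a log2 fold change of -0.06 ± 0.11 (SE), which was 0.06 without mouse 3.

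Of 28 further genes of the endothelial junction and surface, 24 were fitted lower and none passed the thresholds, with a median of -0.16. Cd36, Aqp1 and Cd34 had the highest CPM of this list, and adipocytes or other stromal cells express them as well. Their log2 fold changes were -0.09, -0.16 and 0.09, and those of Cd36 and Cd34 turned to 0.08 without mouse 3 and -0.03 without mouse 2. F11r, a junction gene shared with epithelium, and Rasip1, which encodes a regulator of vascular tube formation, had unadjusted p of 0.0194 and 0.0462 at log2 fold changes of -0.30 and -0.26, within the fold threshold of 0.8. Both were chosen for naming by these values, outside the rule for named genes.

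Among 15 transcription factors tested of 16 listed, 9 were fitted lower, with a median of -0.15, while Etv2, which acts in the embryo, had 0 reads in the 6 glands. Hey1, a target of Notch signaling in arterial endothelium and other cells, was lower in the Adamts18-/- glands. Its levels were 34.3, 45.3 and 19.0 CPM in the WT glands and 23.8, 28.5 and 8.28 CPM in the Adamts18-/- glands. The groups overlapped through the WT gland of mouse 3, and each Adamts18-/- gland lay below its counterpart. Hey1 had a log2 fold change of -0.79 ± 0.15 (SE) at an unadjusted p of 0.00413, and without the block for the mouse the p was 0.230. The adjusted p of Hey1 was 0.987 by edgeR and 0.00857 by DESeq2. Mef2c, a factor of endothelium, muscle and B cells, was at 55.9, 40.9 and 57.5 CPM in the WT glands and at 79.0, 75.5 and 81.1 CPM in the Adamts18-/- glands. The groups did not overlap, and the log2 fold change of Mef2c was 0.63 ± 0.10 (SE) at an unadjusted p of 0.00235. Its adjusted p was 0.987 by edgeR and 0.00399 by DESeq2. The muscle sum was higher in the Adamts18-/- glands of mice 1 and 2. The leukocyte sum was higher in that of each mouse, with ratios of 1.07, 1.10 and 1.42. The part of muscle and leukocytes in the Mef2c result was not tested. Epas1, Klf4 and Ets1 were the most abundant factors and had log2 fold changes of -0.15, 0.11 and 0.30, with p from 0.231 to 0.658. The value of Ets1, a factor also of lymphocytes, came from mouse 3, with log2 differences of -0.21, -0.05 and 1.16 in mice 1, 2 and 3, and without mouse 3 it was -0.12. In the Adamts18-/- gland of mouse 3 Ptprc was high as well, and the part of leukocytes in the Ets1 value was not tested. Klf4 had log2 differences of 0.35, 0.55 and -0.57, and its fitted value was -0.11 without mouse 2 and 0.46 without mouse 3, where it passed the thresholds with p of 0.00601.

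Of 10 genes of Notch, ephrin and connexin signaling in vessels, all were fitted lower, with a median of -0.17. Jag2, a Notch ligand that mammary epithelium also expresses, was at 38.0, 62.1 and 33.0 CPM in the WT glands and at 29.4, 50.9 and 23.5 CPM in the Adamts18-/- glands. Jag2 was lower in each mouse while the groups overlapped, at a log2 fold change of -0.38 ± 0.077 (SE) and unadjusted p of 0.00526 with and 0.369 without the block for the mouse. The receptor Notch1, the ligand Jag1 and the venous receptor Ephb4 had log2 fold changes of -0.10, -0.08 and -0.22. All 25 epithelial genes were fitted lower and 9 of them passed the thresholds (Krt19, Krt18, Krt8, Krt7, Krt14, St14, Krt17, Spint1 and Cdh3), with log2 fold changes from -0.62 for Krt19 to -0.39 for Krt7. None of the epithelial genes was at 0, and the part of epithelial RNA in the F11r and Jag2 values was not tested.

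Of 6 lymphatic genes tested, 5 were fitted lower and none passed the thresholds, with a median of -0.05, and Lyve1, Pdpn and Reln, the most abundant, had log2 fold changes of -0.02, -0.06 and -0.18. Of 12 pericyte genes, 8 were fitted lower, with a median of -0.08. Rgs5, Mcam and Notch3 had the highest CPM, with log2 fold changes of -0.07, -0.21 and -0.26, and Notch3 had an unadjusted p of 0.0243 at a fold of 0.838. Des, an intermediate filament gene of pericytes and of muscle, was at 36.1, 40.4 and 58.0 CPM in the WT glands and at 197, 203 and 62.6 CPM in the Adamts18-/- glands. Its log2 fold change was 1.66 ± 0.54 (SE) with an unadjusted p of 0.0291, and the call was lost without mouse 1 and without mouse 2, at p of 0.104 and 0.139. The muscle sum was higher in the same glands of mice 1 and 2.

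**Figure D5:**
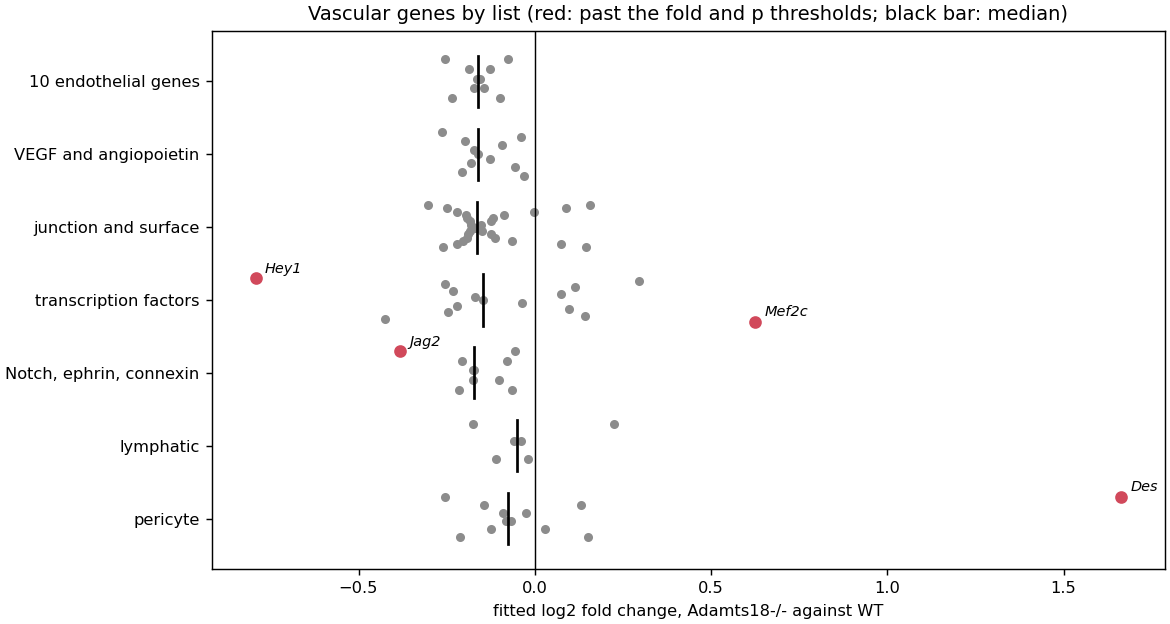
Fitted log2 fold change between Adamts18-/- and WT glands (x axis) of the 10 endothelial genes and of 6 further vascular lists (y axis). Each point is a gene, red points passed the fold and p thresholds (Hey1, Jag2, Mef2c and Des), and black bars are medians, which under TMM scaling run from -0.17 to -0.05.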

How the data were processed

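RNA-seq reads (single-end, 85 bp) were counted by the authors, who deposited whole-number counts per gene symbol without normalization. The submitters' processing notes name bcl2fastq 2.18, TopHat2 2.0.11, featureCounts 1.6.2, edgeR and mm9, with no roles; the strand setting and annotation were not given in the sources used here. Group, mouse and side came from the sample titles. There were 0 columns from other samples.

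Counts were filtered (filterByExpr), scaled by TMM and tested in R 4.3.3 with edgeR 4.0.16 (quasi-likelihood, with a block for the mouse), with Benjamini-Hochberg adjustment of p over the 17345 genes kept. CPM used the TMM factors, and log2 CPM a prior count of 2. The fit was tested on simulated data. Their spread was set below the median spread of these data, and their changes were larger than those of the endothelial genes. That test therefore does not show how well changes of the endothelial size are found here. DESeq2 1.42.0, voom of limma 3.58.1, other scalings and filters, and fits without the block or without 1 mouse were the alternatives. The study's text describes contralateral glands of 1 host, and samples were paired by the mouse number in the titles. Deviations from the group means correlated within these pairs at 0.512, 0.505 and 0.639, and unmatched pairs were not computed. Libraries differed beyond counting noise (chi-square per degree of freedom 42.1 to 433). By this measure the Adamts18-/- gland of mouse 1 was nearer to that of mouse 2 (42.1) than to its WT counterpart (95.2). The WT gland of mouse 1 was also nearer to that of mouse 2 (70.4). In mouse 3 the contralateral glands were nearest to each other (100). The study's text speaks of separate experiments and donors.

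The endothelial genes, the lists and their rules were chosen with earlier results of these data known. Named were the endothelial genes, of each other list the genes past the thresholds and up to 3 with the highest mean CPM, the 10 genes most alike in profile, and Adamts18. One of the genes so named is left out of the text. Erythroid and Schwann cell lists (7 and 6 genes) were also read. Lengths and overlaps came from GENCODE M21 and promoters from RefSeq, both on GRCm38, and no coordinates were converted.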

Additional observations from a re-analysis of the deposited data

How the results depend on the processing

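None of the 10 endothelial genes passed the thresholds under the alternatives of test, scaling, filter or replicate block that were run, and leaving out each mouse gave 0 to 1 of them (Tie1, without mouse 2). Their adjusted p stayed above 0.05 in each of these fits. Their median log2 fold change was -0.13 without the replicate block and -0.24 to -0.11 when a mouse was left out, with the lowest value without mouse 2 and the highest without mouse 3. The mean log2 ratio of their summed CPM was -0.15, and -0.23 to -0.10 when a mouse was left out. Scaling to the epithelial genes shifted the median of all genes to 0.45 and turned the direction of these values to 0.29 for the median and 0.30 for the sum. Relative to that shift the median of the endothelial genes was -0.16. A change of scaling moves all genes by nearly the same amount, so this value could hardly differ from that of the TMM scaling. The same scaling gave log2 fold changes of 0.066 for Jag2, 0.014 for Krt8, 0.059 for Krt7 and 0.017 for St14. Over all genes, 319 were lower and 203 higher in the Adamts18-/- glands. These counts were 125 lower without the replicate block, 340 higher with DESeq2, 345 higher with limma-voom, 352 higher with no filter on low counts, and 27 lower and 2052 higher with the epithelial scaling. Leaving out a mouse gave 214 to 481 lower and 182 to 581 higher. By adjusted p, 359 genes were called with the epithelial scaling, 268 without mouse 3 and 71 with DESeq2, and none of them was one of the 10. Of the 10 genes, leaving out a mouse turned the sign of Pecam1 (0.07 without mouse 1) and of Kdr (0.06 without mouse 3). It also turned the sign of Nrp1, Cd36, Cd34, Klf4, Ets1, Jag1, Lyve1, Pdpn, Reln, Pf4, Ptprc, Hbb-b1, Hba-a1, Hba-a2, Dcn, Pmp22 and Mbp, none of which had passed the thresholds. The cause of these shifts was not tested. With 3 mice, the 95% intervals of the TMM-scaled fit leave fold changes from 0.640 to 1.21 undetermined. This range does not cover the choice of scaling, as the epithelial scaling gave Pecam1 a log2 fold change of 0.37 ± 0.35 (SE).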

Other observations

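Erythroid and Schwann cell genes stand for other contents of the vessels and nerves of the gland, and their levels were also read. The 7 erythroid genes summed to 251, 525 and 491 CPM in the WT glands and to 413, 424 and 443 CPM in the Adamts18-/- glands, and none of the 6 tested passed the thresholds. Their sum was higher in the Adamts18-/- gland of mouse 1 (ratio 1.65), in which the endothelial sum was lower, and lower in those of mice 2 (0.808) and 3. Hbb-b1, Hba-a1 and Hba-a2 had log2 fold changes of 0.11, 0.05 and 0.06. These globin genes have near-identical copies, so reads may have been divided between them.

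The 6 Schwann cell genes summed to 1154, 832 and 802 CPM in the WT glands and to 927, 1076 and 507 CPM in the Adamts18-/- glands, with ratios of 0.803, 1.29 and 0.632. None passed the thresholds, and Pmp22 and Mbp had log2 fold changes of -0.14 and -0.10. Among fibroblast genes, Col3a1, Dcn and Col1a2 had log2 fold changes of 0.41, -0.11 and 0.24, and none of the 10 passed the thresholds.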
